A study of Homo sapiens with 20 samples.

Results

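The genes of MHC class I and of its peptide loading were examined in orthotopic tumors of OVCAR8, a human ovarian cancer cell line. They were taken by symbol and comprised HLA-B, HLA-C, HLA-E, HLA-F, B2M, TAP1, TAP2, TAPBP and NLRC5, which are 9 of the 24196 genes in the table, and all 9 passed the filter, which asked for a mean of 0.5 FPKM. The labels name the injected line as OVCAR8, and the study's methods describe luciferase-tagged OVCAR8-sgNC-luc cells as its control line, placed in the fat pad of the ovary in NSG mice that were 6 weeks old. The control mice received PBS and the treated mice received sodium gluconate at 1 mg/kg, both i.p. once a week for 35 days, and each group gave 4 tumor libraries. NSG mice lack T, B and natural killer cells, so the cells that read MHC class I were missing from the host in both groups. The columns of the table are headed by the letters C and T, read here as PBS and gluconate from the axis of the study's own gluconate plot. The comparison asks which transcripts differ between gluconate and PBS tumors.

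MHC class I molecules carry peptides from inside the cell to its surface, where CD8 T cells and natural killer cells inspect them. Each molecule joins a heavy chain, encoded by an HLA gene, to the light chain beta-2 microglobulin, encoded by B2M. The proteasome cuts the peptides, the TAP1 and TAP2 transporter moves them into the endoplasmic reticulum, and tapasin, encoded by TAPBP, holds the empty molecule at the transporter while a peptide is chosen. NLRC5 is the transactivator of these genes, and interferon gamma raises them, in part through IRF1. Loss of this pathway is a common route by which carcinomas escape T cells.

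PBS replicate 4 stood apart before any comparison. Its FPKM rested on 3953206 fragments, against 39325749 to 46551535 in the other 7 libraries, and 15514 of its genes were above 0, against 19991 to 20251. Its size factor by median ratios was 0.843, against 1.00 to 1.05 in the others, so its FPKM values were on the whole lower. The calls below are therefore given with and without it. Of the ovarian carcinoma markers, PAX8 was between 32.4 and 50.7 FPKM and EPCAM between 10.3 and 22.3 FPKM in all libraries, while MUC16 was at or near 0. WT1 was at 6.58 FPKM in PBS replicate 4 and at 1.07 to 1.82 FPKM in the other tumors. Of 12 leukocyte markers, 7 were in the table, and their summed level was 0.501 to 0.985 FPKM in PBS and 0.694 to 0.855 FPKM in gluconate tumors, with PTPRC at most at 0.0165 FPKM. The 6 endothelial markers summed to at most 0.600 FPKM in PBS and 0.707 FPKM in gluconate tumors. The 9 fibroblast markers summed to 45.3 to 185 FPKM in PBS and 165 to 192 FPKM in gluconate tumors, nearly all of it COL1A1, with the lowest sum in PBS replicate 4. LUM was at 1.70 to 5.18 FPKM, PDGFRB at 1.28 to 3.41 FPKM, FAP at 0.609 to 3.34 FPKM and COL3A1 at 0.230 to 2.25 FPKM. PDGFRA and DCN were near 0, COL1A2 was at most at 0.0678 FPKM and THY1 at most at 0.125 FPKM. All 5 fibroblast markers tested had log2 fold changes above 0, with a median of 0.49, against 66.4% of all genes, or 4 of 5 and 0.20 without PBS replicate 4, against 48.9%. None was called at an unadjusted limma p under 0.05, where 4.62% of all genes and 6.18% without PBS replicate 4 were, and their part in the class I levels was not tested. The host is a mouse, while the values are of human gene symbols on GRCh38, so these marker sums cannot be read as host cell content. How reads of mouse cells were handled is not given in the sources used here. In such bulk samples, fewer cells of a type and less RNA per cell cannot be told apart.

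On chromosome 6 lie 7 of the 9 genes, within a span of 3.59 Mb in and beside the MHC region. In GENCODE v29 on GRCh38, HLA-F spans chr6:29722775-29738528, HLA-E chr6:30489467-30494205, HLA-C chr6:31268749-31272130, TAP2 chr6:32821833-32838780, TAP1 chr6:32845209-32853978 and TAPBP chr6:33299694-33314387. The model of HLA-B, chr6:31269491-31357188, reaches over part of HLA-C on the same strand. B2M lies at chr15:44711487-44718877 and NLRC5 at chr16:56989485-57083531. Of the principal transcripts, only that of TAP2 shares whole windows of 150 bases, the read length, with another gene, 79.4% of them with the overlapping model AL669918.1, so its level is uncertain where reads could be split. HLA-F is overlapped on the other strand by HLA-F-AS1. Class I promoters are known for an NF-kappaB site, an interferon response element and the X and Y boxes, and the promoter stretches of HLA-B, HLA-C and B2M are shown because these genes encode both chains of the classical molecule. The stretches were taken from RefSeq on GRCh38.p14, which had a window of 250 bases before and 50 bases from the start on for 7 of the 9 genes. Capitals mark, on either strand, the interferon response element core AANNGAAA, the Y box CCAATCAG, the X2 box core TGACG and the NF-kappaB consensus, where they lie before the start. These motifs were picked after the sequences had been seen.
HLA-B, chr6:31357223-31357361, minus strand: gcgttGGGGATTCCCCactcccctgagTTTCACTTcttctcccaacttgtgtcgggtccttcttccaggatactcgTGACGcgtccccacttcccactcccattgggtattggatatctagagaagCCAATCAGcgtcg
HLA-C, chr6:31272136-31272269, minus strand: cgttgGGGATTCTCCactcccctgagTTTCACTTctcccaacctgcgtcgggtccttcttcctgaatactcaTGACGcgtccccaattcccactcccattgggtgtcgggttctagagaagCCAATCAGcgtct
B2M, chr15:44711370-44711477, plus strand: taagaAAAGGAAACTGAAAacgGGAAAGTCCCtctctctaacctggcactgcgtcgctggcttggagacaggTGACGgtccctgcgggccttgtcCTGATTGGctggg
For the loading genes and HLA-F, only the stretch at the interferon response element core is shown, because the sequence before their RefSeq starts overlaps exons annotated in GENCODE v29.
HLA-F, chr6:29723273-29723290, plus strand: cagagTTTCTCTTtctct
TAP1, chr6:32853820-32853843, minus strand: gccgcTTTCGATTTCGCTTtcccc
TAP2, chr6:32838783-32838806, minus strand: tggggAAGCGAAAGCGAAAgctgc
TAPBP, chr6:33314079-33314101, minus strand: gaggaAAGTGAAAGTGAAAggag

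The interferon response element core was found in all 7 windows, and in B2M, TAP1, TAP2 and TAPBP it occurred in 2 overlapping copies. Of the 35116 promoter windows of all genes, 22.8% held it. The Y box stood in HLA-B, HLA-C, HLA-F and B2M, against 3.97% of all windows. In HLA-B and HLA-C its first base was 56 bases before the start. The X2 box core was found in HLA-B, HLA-C, B2M and TAP2, against 24.6% of all windows, and the NF-kappaB consensus in HLA-B, HLA-C, B2M, TAP1 and TAPBP, against 11.3%. The HLA-B consensus was matched in 2 overlapping frames on both strands. A match describes letters only, and no binding was measured. The upstream of the RefSeq starts of TAP1 lies 488 bases from that of PSMB9, an immunoproteasome subunit gene that points the other way.

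**Figure D1:**
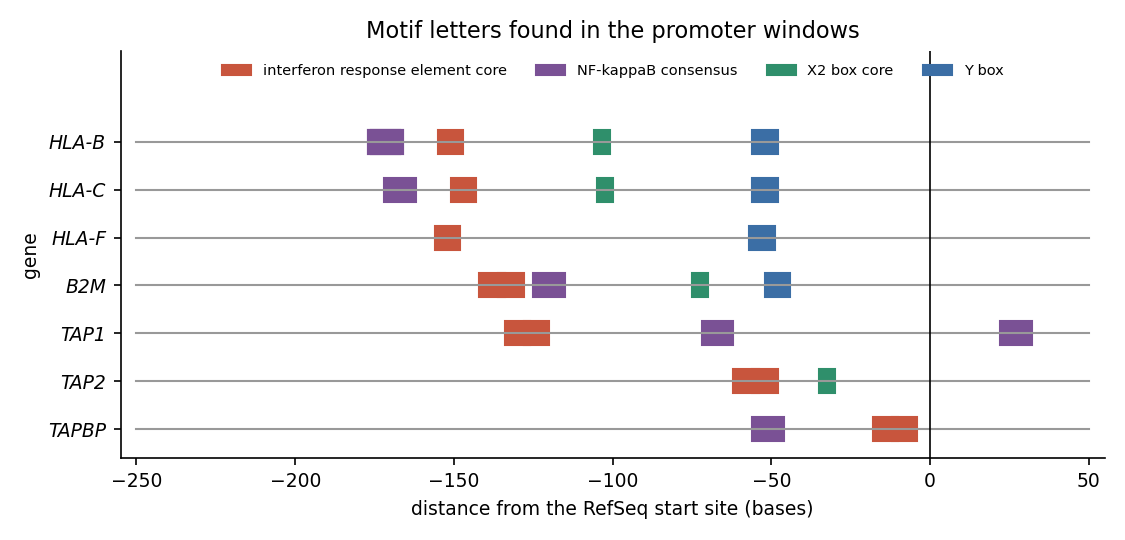
Motif letters in the RefSeq promoter windows of 7 genes, with the distance from the start site in bases on the x axis and a line per gene. Colored boxes are the interferon response element core, the NF-kappaB consensus, the X2 box core and the Y box on either strand; an interferon response element core stands in every window, and the Y box stands in those of the HLA genes and B2M.

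The levels of the 9 genes spanned more than 2 orders of magnitude and kept nearly the same order in every library. FPKM scales fragments by the length of the gene and the fragments of the library, so it compares genes per length. By mean FPKM over the 8 libraries the order was HLA-B, HLA-C, HLA-E, TAP1, TAPBP, TAP2, B2M, HLA-F and NLRC5. HLA-B ranked 98th of all genes in the table by mean FPKM, and NLRC5 ranked 9183rd. HLA-B was 1.96-fold above HLA-C, and HLA-C 2.15-fold above HLA-E, in each case in 8 of 8 libraries and with ranges that did not overlap. TAP1 was 1.20-fold above TAPBP in mean, but in 7 of 8 libraries and with overlapping ranges. TAP2 exceeded B2M in 8 of 8 libraries, although their ranges over all libraries met.

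**Figure D2:**
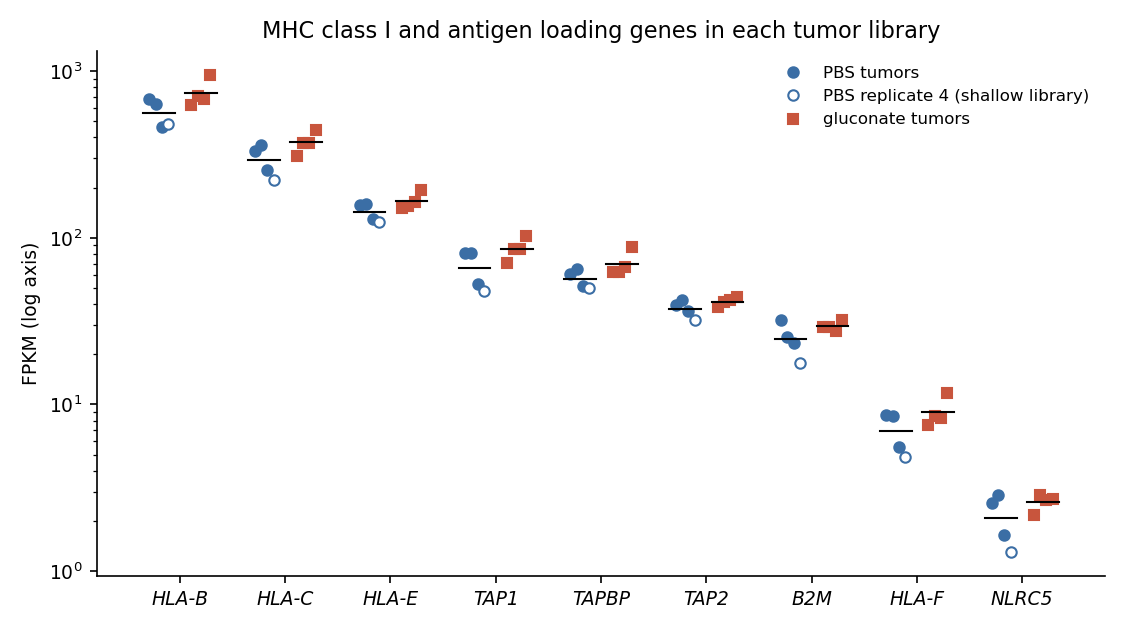
FPKM on a log axis for each gene, ordered by mean level. Circles are the 4 PBS tumors, with the shallow PBS replicate 4 open, squares are the 4 gluconate tumors, and bars are group means. PBS replicates 3 and 4 are the 2 lowest libraries for all 9 genes, and gluconate replicate 4 is the highest for 8 of them.

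HLA-B encodes a classical heavy chain that presents peptides to CD8 T cells. It was at 679, 630, 463 and 483 FPKM in PBS replicates 1 to 4 and at 625, 711, 679 and 952 FPKM in gluconate replicates 1 to 4. PBS replicates 3 and 4 were low, gluconate replicate 4 was high, and the other 5 tumors lay between 625 and 711 FPKM, so the groups overlapped. The means were 564 ± 107 FPKM in PBS and 742 ± 145 FPKM in gluconate tumors (SD, n = 4 each). The log2 fold change of gluconate over PBS was 0.40 with a 95% interval of 0.04 to 0.76 and an unadjusted limma p of 0.0348. The limma p adjusted over all genes was 0.740, and an exact permutation test of this gene alone, two-sided, gave 0.143.

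HLA-C, the second classical heavy chain gene of the group and a main ligand of natural killer cell receptors, had the same 2 low PBS tumors and the same high gluconate tumor. It was at 332, 361, 253 and 221 FPKM in the PBS tumors and at 310, 370, 369 and 443 FPKM in the gluconate tumors. The PBS tumors again split into a higher and a lower pair, and gluconate replicate 1 lay below PBS replicates 1 and 2. Gluconate over PBS gave a log2 fold change of 0.37, with a 95% interval from -0.0005 to 0.74, an unadjusted limma p of 0.0502 and an exact permutation p of 0.143. HLA-B was 1.75- to 2.19-fold above HLA-C within a library, a narrower range than that of either gene over the PBS and gluconate tumors.

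HLA-E encodes a nonclassical heavy chain that is read by the NKG2A receptor of natural killer cells. Its level was 157, 160, 130 and 124 FPKM in PBS and 151, 155, 164 and 194 FPKM in gluconate tumors. The spread was narrower than that of HLA-B, with a 1.57-fold range over all 8 libraries against 2.06-fold. HLA-E had a log2 fold change of 0.22, with a 95% interval from -0.03 to 0.47, an unadjusted limma p of 0.0832 and an exact permutation p of 0.200. HLA-F, a nonclassical heavy chain that can reach the surface without peptide, was far lower, at 8.63, 8.50, 5.57 and 4.86 FPKM in PBS and 7.53, 8.54, 8.35 and 11.7 FPKM in gluconate tumors. It rested on 111 fragments in PBS replicate 4, where the 95% Poisson interval, which covers counting error only, ran from 4.00 to 5.86 FPKM. HLA-F had a log2 fold change of 0.41, with a 95% interval from -0.07 to 0.89, an unadjusted limma p of 0.0838 and an exact permutation p of 0.257.

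B2M encodes the light chain that the classical class I heavy chains generally need to leave the endoplasmic reticulum. It was at 32.0, 25.3, 23.5 and 17.8 FPKM in PBS and at 29.3, 29.1, 27.6 and 32.1 FPKM in gluconate tumors. The gluconate tumors lay close together, with a SD of 1.88 FPKM against 5.88 FPKM in PBS, and PBS replicate 1 nearly matched the highest gluconate tumor. For B2M the log2 fold change was 0.29, with a 95% interval from -0.06 to 0.64, an unadjusted limma p of 0.0955 and an exact permutation p of 0.171. B2M had 200 fragments in PBS replicate 4, and the Poisson interval there was 15.4 to 20.4 FPKM, below the value of each other tumor. The summed FPKM of the 4 heavy chain genes per FPKM of B2M was 36.7, 45.8, 36.3 and 46.8 in PBS and 37.3, 42.8, 44.2 and 49.9 in gluconate tumors. The means of this ratio were 41.4 ± 5.67 and 43.5 ± 5.14 (SD, n = 4 each), a difference smaller than either SD.

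The level of B2M per length depends on the length by which it was divided. The steps of the FPKM values gave a length of 2845 bases for B2M, whereas the longest principal transcript in GENCODE v29 has 1705 bases. For HLA-F the lengths were 5774 and 1635 bases, for TAP2 6131 and 2497 bases and for TAPBP 3975 and 1888 bases, while for HLA-B, HLA-C and TAP1 they differed by less than 5%. With principal lengths, tried after the data were seen, the mean level of B2M was 45.2, that of TAPBP 133, that of TAP2 96.8 and that of TAP1 73.1 in the same unit, and TAP1 moved from the fourth to the sixth place. HLA-B, HLA-C and HLA-E kept their places. Gene lengths cancel in ratios of FPKM between tumors, and enter the fold changes of log2(FPKM + 0.1) only through the pseudocount. The HLA genes are highly polymorphic, and how reads of the OVCAR8 alleles were matched to the reference was not tested.

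TAP1 and TAP2 encode the partner chains of the peptide transporter, and TAP1 had the wider range. TAP1 was at 80.7, 81.2, 53.1 and 47.6 FPKM in PBS and at 70.8, 86.0, 85.3 and 102 FPKM in gluconate tumors. The fit gave TAP1 a log2 fold change of 0.42, with a 95% interval from -0.007 to 0.84, an unadjusted limma p of 0.0530 and an exact permutation p of 0.143. This was the largest of the 9 over all libraries. HLA-B had the largest without PBS replicate 4, with quantile normalization and with voom on recovered fragments. HLA-F had the largest without PBS replicate 1, without gluconate replicate 2 and without gluconate replicate 3. TAP2 was at 39.5, 42.1, 36.5 and 31.9 FPKM in PBS and at 38.2, 41.1, 42.2 and 43.9 FPKM in gluconate tumors. Its range over the 8 libraries was 1.38-fold against 2.14-fold for TAP1, and its log2 fold change was 0.15, with a 95% interval from -0.07 to 0.36, an unadjusted limma p of 0.156 and an exact permutation p of 0.171. TAP1 per TAP2 was accordingly 2.04, 1.93, 1.46 and 1.49 in PBS and 1.85, 2.09, 2.02 and 2.32 in gluconate tumors, with the lowest ratios where the class I genes were low.

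TAPBP encodes tapasin, which bridges the class I molecule to the transporter. It was at 61.0, 64.9, 51.3 and 50.3 FPKM in PBS and at 62.1, 62.5, 66.8 and 88.0 FPKM in gluconate tumors. Gluconate replicate 4 stood well above the other 3 gluconate tumors, which overlapped the higher PBS tumors. Tapasin's log2 fold change was 0.29, with a 95% interval from -0.006 to 0.58, an unadjusted limma p of 0.0538 and an exact permutation p of 0.114.

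NLRC5, the transactivator, was the lowest of the 9, at 2.56, 2.86, 1.66 and 1.31 FPKM in PBS and 2.16, 2.85, 2.67 and 2.73 FPKM in gluconate tumors. It was the only gene of the group that was not highest in gluconate replicate 4, and PBS replicate 2 held its highest value. With 43 fragments in PBS replicate 4, its Poisson interval there was 0.945 to 1.76 FPKM. NLRC5 had a log2 fold change of 0.36, with a 95% interval from -0.18 to 0.89, an unadjusted limma p of 0.165 and an exact permutation p of 0.286.

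All 9 genes had a log2 fold change above 0, with a median of 0.36, while 66.4% of the 12486 genes tested were above 0 and their median was 0.07. HLA-B alone of the 9 had an unadjusted limma p under 0.05, here termed a call, against 4.62% of all genes tested and 3.13% in the direction of gluconate, and 1 call in so few genes is no result about the group. No gene of the table had an adjusted limma p under 0.05, 577 had an unadjusted p under 0.05, and voom on the recovered fragments gave 0 and 593. The groups overlapped for all 9 genes, and 3.49% of all genes tested had groups that did not overlap. Exact permutation p values of the 9 genes were between 0.114 and 0.286, where the smallest that 4 against 4 libraries can give is 0.0286.

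Single tumors moved these counts. Without PBS replicate 4, all 9 log2 fold changes were still above 0, against 48.9% of all genes, but the median was 0.23, against -0.003 for all genes, and none of the 9 had an unadjusted p under 0.05, against 6.18% of all genes. The groups still overlapped for all 9, against 6.06% of all genes without overlap. HLA-B then had a log2 fold change of 0.33, with a 95% interval from -0.04 to 0.69, an unadjusted limma p of 0.0726 and an exact permutation p of 0.229. That of TAP2 was 0.07, with a 95% interval from -0.09 to 0.24, and those of the other heavy chain genes were 0.25 for HLA-C, 0.15 for HLA-E and 0.26 for HLA-F. TAP1 was at 0.28, TAPBP at 0.23, NLRC5 at 0.16 and B2M at 0.14, all with unadjusted limma p values from 0.102 to 0.384 and intervals that included 0. None of the 9 was called without PBS replicate 3 or without gluconate replicate 4 either, against 4.04% and 2.14% of all genes. Without PBS replicate 1, 5 of the 9 were called, against 9.72% of all genes, without PBS replicate 2, 7 against 6.99%, and without gluconate replicate 1, 4 against 3.64%. In further fits added after the data were seen, the median without both PBS replicates 3 and 4 was 0.06, with NLRC5 at -0.06, and without PBS replicate 4 and gluconate replicate 4 it was 0.13.

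**Figure D3:**
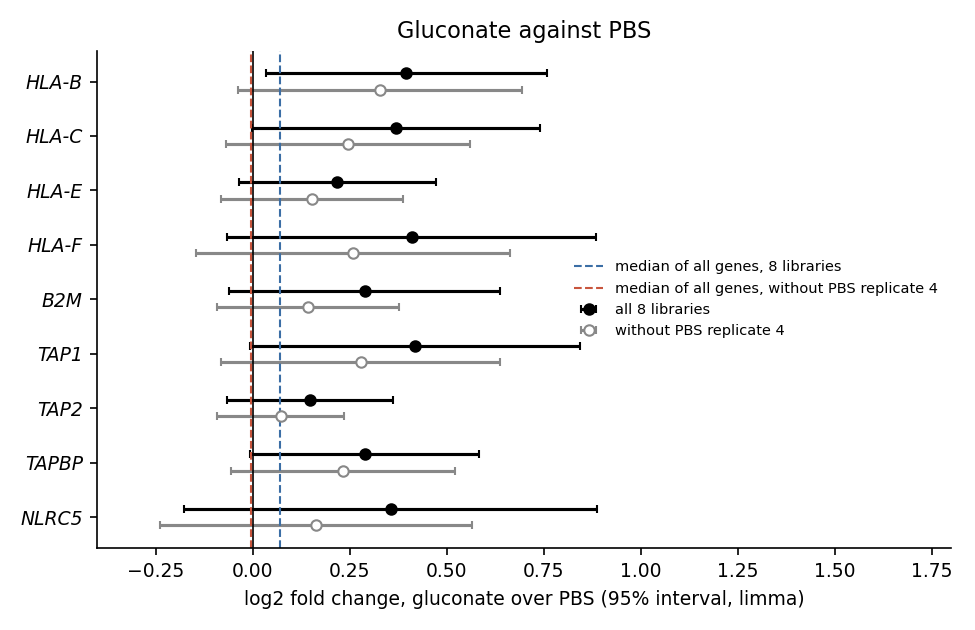
Log2 fold change of gluconate over PBS for each gene on the x axis, with 95% limma intervals, from all 8 libraries (filled) and without PBS replicate 4 (open). Dashed lines are the medians of all genes tested, 0.07 and -0.003. Every point lies to the right of 0, and the HLA-B interval from all libraries is the only interval that does not include 0.

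The order of the tumors was shared by the whole group. PBS replicates 3 and 4 were the 2 lowest libraries for 9 of the 9 genes, against 17.7% of all genes tested, and gluconate replicate 4 was the highest for 8 of the 9, against 15.2%. Dividing the FPKM of each library by its median-ratio size factor, a scaling planned for the fits and applied to these levels after the data were seen, brought PBS replicate 4 up, to 573 FPKM in HLA-B and 56.5 FPKM in TAP1. The lowest library was then PBS replicate 3 for 7 of the 9 genes and PBS replicate 4 for B2M and NLRC5. The low level in PBS replicate 3 was seen at a depth of 39895393 fragments. Over the 36 pairs of the 9 genes, Pearson's r of log2 levels had a median of 0.93 over 8 libraries and of 0.90 over the 7 without PBS replicate 4, as a description, since all pairs share the same few libraries. The highest pair was HLA-C with TAP1 in both cases, at 0.99 and 0.98, and the lowest was B2M with TAPBP at 0.72 over 8 and B2M with TAP2 at 0.44 over 7.

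The proteasome subunits that make class I peptides were also low in PBS replicates 3 and 4. The immunoproteasome subunits PSMB8, PSMB9 and PSMB10 and the activator subunits PSME1 and PSME2 all had log2 fold changes above 0, from 0.23 to 0.41 with a median of 0.32, and 1 of the 5 had an unadjusted p under 0.05, where 66.4% and 4.62% of all genes did. That gene was PSME2, at 94.1, 96.4, 75.3 and 80.2 FPKM in PBS and 99.2, 100.1, 94.1 and 112 FPKM in gluconate tumors, with a log2 fold change of 0.23, an unadjusted limma p of 0.0387 and an exact permutation p of 0.0857. Without PBS replicate 4 its limma p was 0.0675, and 0 of the 5 were called, against 6.18% of all genes. The 5 log2 fold changes then ran from 0.12 to 0.26 with a median of 0.20, where 48.9% of all genes were above 0. PSMB9, the neighbor of TAP1, was at 47.6, 43.5, 27.3 and 25.4 FPKM in PBS and 38.8, 51.5, 48.1 and 47.1 FPKM in gluconate tumors. TAP1 per PSMB9 stayed between 1.67 and 2.16 in all libraries. PSMB8 was at 61.9, 62.1, 40.3 and 37.3 FPKM in PBS and 55.9, 63.8, 64.3 and 69.9 FPKM in gluconate tumors. For 5 of the 5 genes the 2 lowest libraries were PBS replicates 3 and 4, against 17.7% of all genes tested. Gluconate replicate 4 was the highest for 4, against 15.2%, PSMB9 being highest in gluconate replicate 2. TAP1 and PSMB9 overlap on opposite strands in GENCODE v29, and whether counting used strand is not given in the sources used here.

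The enzymes that trim peptides and the chaperones that hold empty molecules had median log2 fold changes near that of all genes or below it. Of the 7 peptide trimming enzymes none had an unadjusted p under 0.05, against 4.62% of all genes, and the absence of calls in so short a list is no result about it, and their median log2 fold change was -0.08, or -0.02 without PBS replicate 4. NPEPPS and BLMH, the most abundant of them, had log2 fold changes of -0.08 and -0.10, or of -0.001 and -0.07 without PBS replicate 4. Of the 7, 3 were above 0, against 66.4% of all genes, and 2 without PBS replicate 4, against 48.9%. The 3 were ERAP1 at 0.29, ERAP2 at 0.37 and LNPEP at 0.29, or at 0.06, -0.02 and 0.004 without PBS replicate 4. None of the 5 loading chaperones was called either, against the same 4.62%, with a median of 0.04, or -0.02 without PBS replicate 4. Calreticulin, encoded by CALR, which binds the sugar of the heavy chain in the loading complex, was at 422, 496, 472 and 428 FPKM in PBS and 432, 459, 467 and 469 FPKM in gluconate tumors. Calnexin, encoded by CANX, was at 275, 284, 274 and 241 FPKM in PBS and 276, 280, 264 and 267 FPKM in gluconate tumors. The 2 lowest libraries were PBS replicates 3 and 4 for 0 of the 5 chaperones and for 2 of the 7 trimming enzymes, against 17.7% of all genes tested.

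**Figure D4:**
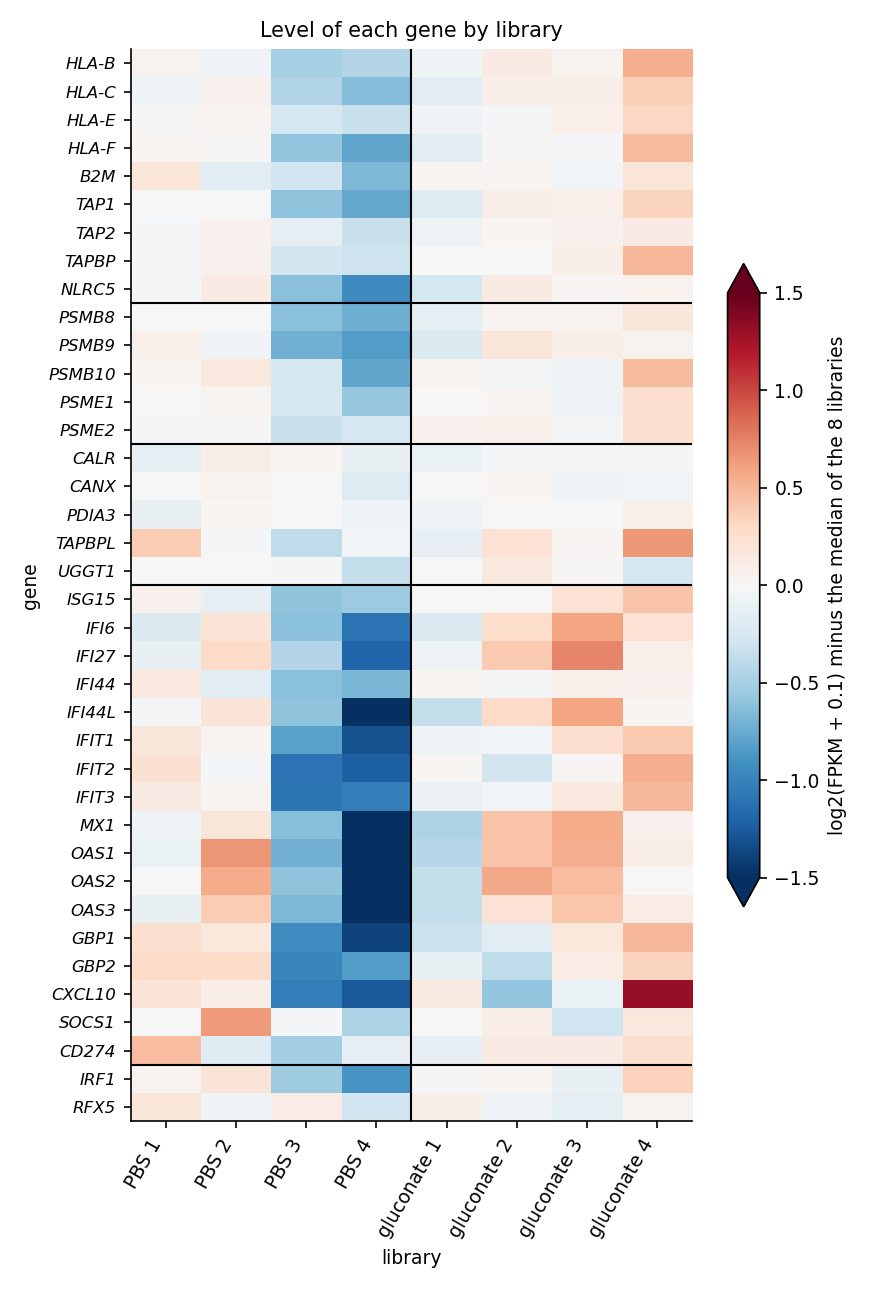
Level of each gene by library, as log2(FPKM + 0.1) minus the median of the 8 libraries, blue for lower and red for higher. Blocks from top to bottom are the 9 class I genes, the immunoproteasome and its activator, the loading chaperones, the interferon-stimulated genes, and IRF1 and RFX5. PBS replicates 3 and 4 are blue through the class I, immunoproteasome and most interferon-stimulated rows, and are not the 2 lowest libraries in CALR, CANX or PDIA3.

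Of the other class I-like chains, a list of 12 genes, 10 were tested, 9 had a log2 fold change above 0 with a median of 0.17, against 66.4% of all genes, and 2 had an unadjusted p under 0.05, against 4.62%. Without PBS replicate 4, 6 of the 10 were above 0, against 48.9% of all genes, and the median was 0.03. Both called genes are ligands of NKG2D, the activating receptor of natural killer cells. RAET1G was at 0.863, 0.456, 0.455 and 0.224 FPKM in PBS and 0.888, 0.910, 1.38 and 1.12 FPKM in gluconate tumors, so the groups did not overlap. It passed the filter on mean level only through the gluconate tumors, since its PBS mean was 0.499 FPKM, so its call is no support for a difference, and with a minimum of 1 FPKM it was not tested and the list had 1 call. Its log2 fold change was 1.06, with an unadjusted limma p of 0.00918 and an adjusted p of 0.740. In PBS replicate 4 it rested on 2 fragments, with a Poisson interval from 0.0271 to 0.808 FPKM. ULBP1 was at 3.74, 3.32, 3.40 and 2.13 FPKM in PBS and 3.44, 5.05, 5.17 and 4.21 FPKM in gluconate tumors, with a log2 fold change of 0.50, an unadjusted limma p of 0.0299 and an exact permutation p of 0.0571. The log2 fold changes without PBS replicate 4 were 0.80 for RAET1G, and 0.33 with a limma p of 0.0396 for ULBP1, which was not called without gluconate replicate 2 or without gluconate replicate 3. MICA and MICB, the most abundant of these genes, had log2 fold changes of 0.06 and 0.09. HLA-G and CD1D were too low to be tested.

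Of the factors that bind class I promoters or silence them, none of the 14 tested had an unadjusted p under 0.05, against 4.62% of all genes, 1 had with median-ratio scaling and 1 with quantile normalization, and their median log2 fold change was 0.003, or -0.06 without PBS replicate 4. RFX5, the subunit of the RFX complex that recruits NLRC5 to the promoter, was at 16.4, 13.8, 15.6 and 11.8 FPKM in PBS and 15.3, 13.9, 13.1 and 15.0 FPKM in gluconate tumors. RELA and RFXANK, the most abundant, had log2 fold changes of 0.19 and -0.12. IRF1, which binds interferon response elements, was at 11.8, 13.0, 7.79 and 6.09 FPKM in PBS and 11.1, 11.6, 10.5 and 14.5 FPKM in gluconate tumors, with the same 2 low PBS tumors. Its log2 fold change was 0.35 with an exact permutation p of 0.314, and was 0.15 without PBS replicate 4. CIITA, the class II transactivator, was at most at 0.0167 FPKM.

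Of the 10 interferon receptor and kinase genes, 10 had log2 fold changes above 0 over all libraries, with a median of 0.22, against 66.4% of all genes, and 3 had an unadjusted p under 0.05, against 4.62%. Without PBS replicate 4, 8 were above 0, against 48.9%, the median was 0.16 and 2 were called, against 6.18%. IFNGR1, the ligand-binding chain of the interferon gamma receptor, was at 13.0, 11.9, 11.7 and 9.22 FPKM in PBS and 14.2, 13.1, 14.4 and 16.0 FPKM in gluconate tumors, without overlap, as for 3.49% of all genes. Its log2 fold change was 0.34, with an unadjusted limma p of 0.0169 and an exact permutation p of 0.0286. Without PBS replicate 4 it was 0.24, with a limma p of 0.0155, and without gluconate replicate 4 the limma p was 0.0526. IFNGR2, the second chain, had a log2 fold change of 0.24 with an unadjusted limma p of 0.0413, and of 0.18 with a limma p of 0.0720 without PBS replicate 4. IRF9, a DNA-binding part of the factor that answers type I interferon, had a log2 fold change of 0.57 with an unadjusted limma p of 0.0277, and of 0.36 with a limma p of 0.0377 without PBS replicate 4, but was not called without PBS replicate 3, gluconate replicate 3 or gluconate replicate 4, with a p of up to 0.0701. IFNAR1, a chain of the type I receptor, had groups that did not overlap, with an exact permutation p of 0.0286, but was not called by limma, at a log2 fold change of 0.20. Without PBS replicate 4 its log2 fold change was 0.10 with a limma p of 0.161. JAK1 had a log2 fold change of 0.02, or of -0.08 without PBS replicate 4, and TYK2 one of 0.02, or of -0.06. STAT2 had one of 0.49, with an unadjusted limma p of 0.0642 and an exact permutation p of 0.0571, or of 0.24 without PBS replicate 4. For 7 of the 10 the 2 lowest libraries were PBS replicates 3 and 4, against 17.7% of all genes.

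Interferon-stimulated genes outside antigen presentation, 17 in number, served for comparison. Of these, 16 had a log2 fold change above 0, against 66.4% of all genes, with a median of 0.61, or 0.28 without PBS replicate 4, and 2 had an unadjusted p under 0.05, against 4.62%. ISG15, a ubiquitin-like modifier, was at 339, 298, 213 and 222 FPKM in PBS and 326, 323, 376 and 438 FPKM in gluconate tumors, with a log2 fold change of 0.47, an unadjusted limma p of 0.0179 and an exact permutation p of 0.0857. These were 0.38 and a limma p of 0.0374 without PBS replicate 4, and ISG15 was not called without PBS replicate 3 or without gluconate replicate 4, with a p of up to 0.0543. IFI6, the most abundant of them, had a log2 fold change of 0.65 with an unadjusted limma p of 0.0359, and of 0.42 with a limma p of 0.0704 without PBS replicate 4. For 15 of the 17 the 2 lowest libraries were PBS replicates 3 and 4, against 17.7% of all genes, while gluconate replicate 4 was the highest for 7 of them, against 15.2%.

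Of 6 genes of class I surface turnover, 5 had a log2 fold change above 0, with a median of 0.17, and 1 was called, against 66.4% above 0 and 4.62% called of all genes. Without PBS replicate 4, 4 of 6 were above 0, with a median of 0.10, and 1 was called, against 48.9% and 6.18%. The gene called was MARCHF9, a ubiquitin ligase that removes class I molecules from the surface. It had an unadjusted limma p of 0.0435 and a log2 fold change of 0.57, or of 0.32 with a limma p of 0.0439 without PBS replicate 4. The call was lost without PBS replicate 3 and without each of gluconate replicates 2, 3 and 4, with a p of up to 0.109. It was at 3.64, 3.52, 2.90 and 1.61 FPKM in PBS and 3.40, 4.97, 4.00 and 4.60 FPKM in gluconate tumors, with overlap. TMEM127, a part of another removal route, had groups that did not overlap, as for 3.49% of all genes, from 9.25 to 14.28 FPKM in PBS and from 14.35 to 16.26 FPKM in gluconate tumors, with an unadjusted limma p of 0.122. SPPL3, a protease in this list, had a log2 fold change of 0.19 with an unadjusted limma p of 0.0718. MARCHF4, a related ligase, was below 0, at a log2 fold change of -0.50 with an unadjusted limma p of 0.0832, and at -0.50 without PBS replicate 4. KRT7, a keratin of the carcinoma markers, was the only gene of the 7 tested in that list with an unadjusted p under 0.05, against 4.62% of all genes, at a log2 fold change of 0.73 with a limma p of 0.0201, or of 0.48 with a limma p of 0.0269 without PBS replicate 4, and it too was lowest in PBS replicates 3 and 4. KRT7 was not called without gluconate replicate 3 or without gluconate replicate 4. The keratins KRT8 and KRT18 of the same list were at -0.20 and -0.33, and the median of its 7 genes tested was 0.06, or -0.14 without PBS replicate 4.

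Outside these lists, the 5 genes whose pattern was most like the mean log2 level of the 9 class I genes, over the 7 libraries without PBS replicate 4, were SAMD9L, WARS1, SMPD1, CD44 and HES4. Their Pearson's r was 0.998, 0.994, 0.992, 0.988 and 0.988, as a description over 7 shared libraries, and 264 of the 12391 genes compared were above 0.9. Over all 8 libraries r stayed at 0.996 for SAMD9L and 0.997 for WARS1, and was 0.796 for CD44. WARS1, the cytosolic tryptophanyl-tRNA synthetase, was at 86.0, 85.5, 47.9 and 40.0 FPKM in PBS and 71.8, 90.4, 82.4 and 121 FPKM in gluconate tumors. PBS replicate 4, where most class I genes were lowest, also had the lowest COL1A1, at 41.4 FPKM against 121 to 182 FPKM in the other tumors. The part of its depth and of this collagen in the class I levels was not tested.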

How the data were processed

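Tumor RNA was poly(A) selected and sequenced with paired-end reads. The authors deposited FPKM values of 24196 genes by symbol for 8 tumor libraries, and the submitters' processing notes name GRCh38. The aligner, counter and annotation are not given in the sources used here. Where the paper's text speaks of cells, the labels' word, tumors, was kept. The 12 knockout and control cell libraries of the series were not analysed here. Members and gene lists were chosen with earlier results of these data known.

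All FPKM values were whole multiples of 1 fragment within 0.01 fragments in 24196 of 24196 genes, which gave fragments and gene lengths. log2(FPKM + 0.1) was fitted with limma 3.58.1 (trend, R 4.3.3) over 12486 genes whose mean FPKM reached 0.5, 4 PBS against 4 gluconate libraries, without covariates. Fold changes are on this scale and understate those of low genes. P values are two-sided, and adjusted p values are limma's by Benjamini-Hochberg over all genes tested. Replicates are separate tumors by their labels, nothing says more of their origin, and p values measure the spread between these samples only. All 9 members were named. Genes of other lists were named for an unadjusted p under 0.05, groups that do not overlap, abundance (the 2 highest) or role, and the 5 most similar genes by Pearson's r. SAMD9L and the other similar genes lie outside every list. Other genes named were chosen after their values were seen. Alternatives were pseudocounts of 1 and 0.01, no filter, a mean FPKM minimum of 1, median-ratio scaling, quantile normalization, a replicate block, voom on fragments and leaving out each library. The values of 1 gene of the interferon receptor and kinase list, counted in the list's totals, are not reported here.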

Additional observations from a re-analysis of the deposited data

Results flagged for a closer look

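Of 46 groups of 4 values examined, in which chance would set a library apart in about 1 of 20, 2 held a library far from the others, and both concern PBS replicate 4. Its FPKM rested on 3953206 fragments, against 39895393 to 46551535 in the other PBS tumors. It had 15514 genes above 0, against 20014 to 20117. None of the 9 class I genes had a tumor that far from the other 3 of its group. In the PBS tumors, replicates 3 and 4 were both low. Among the gluconate tumors, replicate 4 was highest for 8 of the 9, and in TAPBP it was at 88.0 FPKM against 62.1 to 66.8 FPKM in the other 3.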

How the results depend on the processing

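Over 20 alternatives, 179 of 180 log2 fold changes of the 9 genes were above 0, and no adjusted limma p of a member fell under 0.491. The exception was NLRC5 without PBS replicates 3 and 4 (-0.062), where the median of the 9 was 0.056. The number of members with an unadjusted p under 0.05 was 1 in all libraries. It was 2 with a pseudocount of 1, a mean FPKM of at least 1 or voom on recovered fragments, where HLA-C joined HLA-B, and 0 without a filter, with median-ratio scaling, with quantile normalization, and under each alternative added after the data were seen (without PBS replicate 4 with voom or median ratios, without PBS replicates 3 and 4, and without PBS replicate 4 and gluconate replicate 4). Leaving out each library gave 0 to 7. With the replicate number as a block it was 0. Same-numbered tumors deviated together little or not at all (r = -0.18, 0.08, 0.17 and -0.06), although for numbers 2 and 3 the best match was the same number. The labels name no pairs, so the numbers were not read as pairs. All genes at a 2-fold change and unadjusted p under 0.05 were 13 lower and 24 higher; these were 3 and 5 with a pseudocount of 1, 20 and 9 with quantile normalization, 7 and 9 with voom, 61 higher without a filter, 4 higher without PBS replicate 4 with voom, 7 and 3 without it with median ratios, 20 and 7 without PBS replicates 3 and 4, 7 and 6 without PBS replicate 4 and gluconate replicate 4, and 5 to 46 lower and 3 to 64 higher with each library left out. Unadjusted p under 0.05 was found for 267 to 1214 genes with a library left out, and for 1028 without a filter. Calls in the other lists with a library left out were 0 to 4 for the immunoproteasome, 1 to 3 for class I-like chains, 0 to 2 for regulators and for turnover, 0 to 5 for interferon receptors, 0 to 9 for interferon-stimulated genes, 0 to 3 for carcinoma markers and 0 to 1 for fibroblast markers. Under the other alternatives planned, calls went from 3 to 1 with the replicate block, 2 with voom and 4 with quantile normalization for interferon receptors, from 1 to 0 with median ratios and voom for the immunoproteasome and with no filter and voom for turnover, from 2 to 1 with a mean FPKM of at least 1 for class I-like chains, from 2 to 3 with the replicate block for interferon-stimulated genes, and from 0 to 1 with median ratios and quantile normalization for regulators. Of the 11 listed genes called, 10, all but RAET1G, lost the call without at least 1 library: HLA-B, PSME2, IRF9, MARCHF9, ISG15, IFNGR2 and IFI6 without PBS replicate 3 among others, IFNGR1 without gluconate replicate 4, and ULBP1 and KRT7 without gluconate replicate 3 among others. The cause of these moves was not tested. Median-ratio scaling lowered the member median to 0.29 and that of all genes to 0.003. Of the 9 genes, NLRC5, HLA-F and B2M had the fewest fragments in PBS replicate 4.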
